A study of Homo sapiens with 4 samples.

Results

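This section describes 7 genes of DNA mismatch repair, MSH6, MSH3, MSH5, PMS2, PMS1, MLH3 and EXO1, in darolutamide-resistant prostate cancer cells with and without knockdown of the lncRNA LOC730101. They were taken by name from the deposited count table, which lists 60606 genes, and all 7 were found there and passed the filter on low counts. Mismatch repair removes bases that the replication polymerases have misplaced and small loops at repeated sequences. Proteins of the MutS family recognise the error, proteins of the MutL family are recruited to it and nick the new strand, EXO1 digests that strand, and the replication machinery fills and seals the gap.

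RNA was sequenced from 4 libraries of LNCaP-DaroR cells, a line derived from LNCaP, the androgen receptor-positive prostate cancer line, by stepwise selection in darolutamide and long culture with the drug. The siControl libraries (n = 2) came from DaroR cells transfected with control siRNA and the siLOC730101 libraries (n = 2) from DaroR cells transfected with an siRNA pool against LOC730101, so both groups share the resistant background. DaroR is 1 resistant derivative of 1 cell line, and parental LNCaP cells were not analysed here. The comparison asks which genes respond to loss of LOC730101 in resistant cells.

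The libraries held 39213498 to 53368158 counts, and the 7 genes together had 11751 to 18951 counts in a library. LOC730101, listed as ENSG00000216775 on chromosome 6, had 2560 and 2370 counts in siControl and 633 and 680 in siLOC730101, so its log2 fold change of siLOC730101 against siControl (log2FC) was -1.56 (standard error, SE, 0.12, edgeR adjusted p = 4.34e-06). Each of 9 luminal prostate markers had at least 334.4 normalized CPM (counts scaled to the library size after TMM correction) in every library. Of 8 markers of stromal, immune, endothelial and basal cells, COL1A1 had 10.98 to 14.7 CPM, and the other 7 had 0 to 2 counts in each library. In edgeR's quasi-likelihood test, 55 of 19349 genes (0.284%) differed between the groups with an adjusted p under 0.05. The p-values were Benjamini-Hochberg values over all genes tested. DESeq2 called 297 of 9525 genes at the same threshold. The paper, whose methods name DESeq2, reports far more genes for this knockdown at an adjusted p under 0.05. The cause of the difference was not tested.

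None of the 7 mismatch repair genes passed an adjusted p of 0.05 in edgeR, and 2 of them, MSH3 and EXO1, had an unadjusted p under 0.05, both with lower values after siLOC730101. Over all genes tested, 4.39% were lower at this unadjusted threshold. DESeq2 gave an adjusted p to 6 of the 7 genes and called 0 of them, where it called 3.12% of the genes it gave one. The log2FC was below 0 for 6 of the 7 genes, with a median of -0.072, and for 50.4% of all genes tested, whose median was -0.0021. This median rests on single libraries, being -0.16 without siControl replicate 2, with 7 of 7 genes below 0, and -0.027 without siLOC730101 replicate 2, with 5 of 7 below 0. In MSH6, MSH3 and EXO1 both siLOC730101 libraries lay below both siControl libraries, and this order was found in 20.5% of all genes tested. The libraries are of bulk RNA, so fewer cells that express a gene and less RNA in each cell cannot be told apart.

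**Figure D1:**
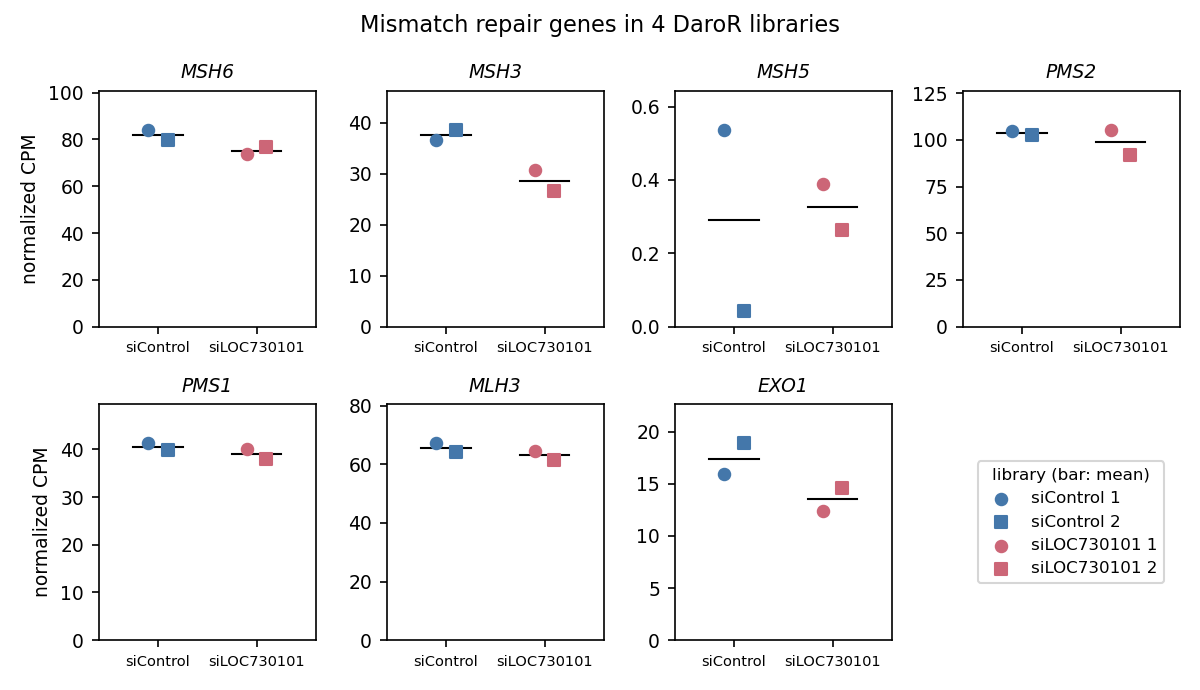
Normalized CPM of the 7 mismatch repair genes, 1 panel for each gene with its own axis from 0. Points are libraries (circle for replicate 1, square for replicate 2) and bars are group means (n = 2). The siLOC730101 points lie below both siControl points for MSH6, MSH3 and EXO1, and the groups overlap for the other genes.

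Promoters were examined because E2F factors, known to control many replication genes, belong to the question the study asked of LOC730101. Windows of 300 bases around gene starts, taken from RefSeq (GRCh38.p14, 250 before and 50 after a start), were searched on both strands for the E2F motif in 4 spellings, TTTGGCGC, TTTGCCGC, TTTCGCGC and TTTCCCGC. At least 1 match was found for 4 of the 7 genes, MSH3, MSH6, PMS2 and EXO1, and 0 for MSH5, PMS1 and MLH3. A gene was counted if any of its windows held a match, so genes with more annotated starts had more chances. MSH6 and EXO1 also had windows without a match, while MSH5, PMS1 and MLH3 had 1 window each. Of 27305 genes with a window, 3.99% had a match, as did 6.33% of the 12236 of them that were tested. The 80 bases around the matches are shown because these 4 genes include all 3 whose groups did not overlap. Among tested genes with a window, both siLOC730101 libraries lay below both siControl libraries in 22.4% with a match and 18.8% without. The windows of EXO1 lie around later starts, and its first RefSeq start, at 241847986, had no window of its own. Capitals mark the match.
MSH3 (chr5:80654509-80654588, plus strand): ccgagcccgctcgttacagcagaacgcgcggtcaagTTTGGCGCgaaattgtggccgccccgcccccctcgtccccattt
MSH6 (chr2:47783112-47783191, plus strand): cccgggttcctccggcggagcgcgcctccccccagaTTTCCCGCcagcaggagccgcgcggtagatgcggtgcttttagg
EXO1 (chr1:241848172-241848251, plus strand): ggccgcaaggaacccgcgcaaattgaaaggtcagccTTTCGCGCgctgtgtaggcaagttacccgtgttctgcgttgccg
PMS2 (chr7:6009106-6009185, minus strand): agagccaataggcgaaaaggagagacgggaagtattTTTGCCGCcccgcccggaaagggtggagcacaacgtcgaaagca

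The match of MSH3 begins 107 bases before the start of the gene, and a second match on the other strand overlaps it. Those of EXO1 and MSH6 begin 4 and 3 bases after an annotated start, and that of PMS2 begins 43 or 100 bases before, depending on which of 2 annotated starts is used. PMS2, with a match, had a log2FC of -0.072, so matches were found for genes with and without overlap between the groups. Across all tested genes with a window, the median log2FC was -0.0051 for the 774 with a match and 0.015 for the 11462 without. At an unadjusted p under 0.05, 6.33% of the genes with a match and 3.99% of those without were lower. A match is a string of letters and says nothing about whether an E2F protein is bound in these cells.

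The study examined miR-1-3p in connection with LOC730101, so the 3′ UTRs of the 7 genes were searched for its seed matches in the canonical transcripts of a GRCh37 annotation. The mature miRNA from RefSeq is shown with its seed in capitals, followed by the sites found, with the seed match in capitals. Coordinates of the sites are on GRCh37.
hsa-miR-1-3p: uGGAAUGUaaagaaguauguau
PMS2 7mer-m8 site (chr7:6012211-6012232, minus strand): cactatttgaaACATTCCtctg
PMS2 8mer site (chr7:6012095-6012117, minus strand): tgaactgtagaACATTCCAgtta
MLH3 7mer-A1 site (chr14:75480679-75480700, minus strand): gaagagccaccCATTCCAtcca

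PMS2 holds a pair of sites, at positions 809 and 924 of a 3′ UTR of 2474 nucleotides, and MLH3 holds 1, at position 3096 of 3307. These are the longest 3′ UTRs of the 7 genes. No match was found in MSH3 (953 nucleotides), EXO1 (339), PMS1 (193), MSH5 (145) or MSH6 (93). Sites were thus found in 2 of 7 genes, and in 20% of 19364 protein-coding genes searched in the same way. The 2 genes with sites had log2FC values of -0.072 and -0.058, and MSH3 and EXO1, which had the lowest values, had none. Whether the sites bear on these values was not tested.

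MSH6 and MSH3 encode the MutS subunits that decide which error is recognised. MSH6 directs repair to base mismatches and loops of a single base, and MSH3 to larger loops. MSH3 lies on chromosome 5, from 80654652 to 80876815 on GRCh38, on the plus strand. It was covered by 1980 and 1809 counts in siControl and 1262 and 1010 in siLOC730101. Its normalized CPM was 36.6 and 38.6 in the siControl libraries and 30.7 and 26.6 in the siLOC730101 libraries, so the highest siLOC730101 value was below the lowest siControl value. The means were 37.6 ± 1.43 (SD, n = 2) and 28.7 ± 2.91 (SD, n = 2), with a log2FC of -0.39 (SE 0.11, 95% interval -0.63 to -0.15). The unadjusted p was 0.00316 and the adjusted p 0.166 in edgeR, so that MSH3 ranked 367 of the 19349 genes by p and did not pass. Its promoter holds the E2F motif shown above, and its 3′ UTR no miR-1-3p seed match. Without siLOC730101 replicate 1, the higher of the pair, the log2FC was -0.49 and the adjusted p 0.0102 in edgeR, in a fit that called 5.56% of its genes. Without siLOC730101 replicate 2 the values were -0.30 and 0.550, and these were the lowest and the highest adjusted p of all alternatives.

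MSH6 lies on chromosome 2, from 47783145 to 47810101 in RefSeq on GRCh38, also on the plus strand. Counts were 4547 and 3738 in siControl and 3028 and 2915 in siLOC730101. Its normalized CPM was 84.1 and 79.9 in siControl and 73.7 and 76.8 in siLOC730101. The groups did not overlap, but the gap between them was smaller than the distance between the siControl libraries and about equal to that between the siLOC730101 libraries. The log2FC was -0.12 (SE 0.085, 95% interval -0.30 to 0.056, edgeR adjusted p = 0.652), so the interval holds both no difference and a small reduction. In the count table the gene extends further upstream, to 47695530, and its exons cover 17683 nucleotides in all. FBXO11, a gene on the opposite strand, shares 4022 of these nucleotides (22.7%). The counting command names no strand option, so reads there could not be given to either gene by strand. FBXO11 itself had 58.6 and 54.5 CPM in siControl and 55.3 and 59.8 in siLOC730101, with a log2FC of 0.024 (edgeR adjusted p = 0.964).

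The balance of MSH6 to MSH3 was read within each library, where it does not depend on how libraries are scaled. These ratios were chosen after the counts had been seen, and are given as a description with no test. An exact permutation test of 2 against 2 libraries could not give a two-sided p under 0.333. There were 2.30 and 2.07 MSH6 counts for each MSH3 count in siControl, and 2.40 and 2.89 in siLOC730101. The siLOC730101 values were the higher, by 0.27 on the log2 scale, with an SD of 0.108 between the siControl and 0.188 between the siLOC730101 libraries.

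**Figure D2:**
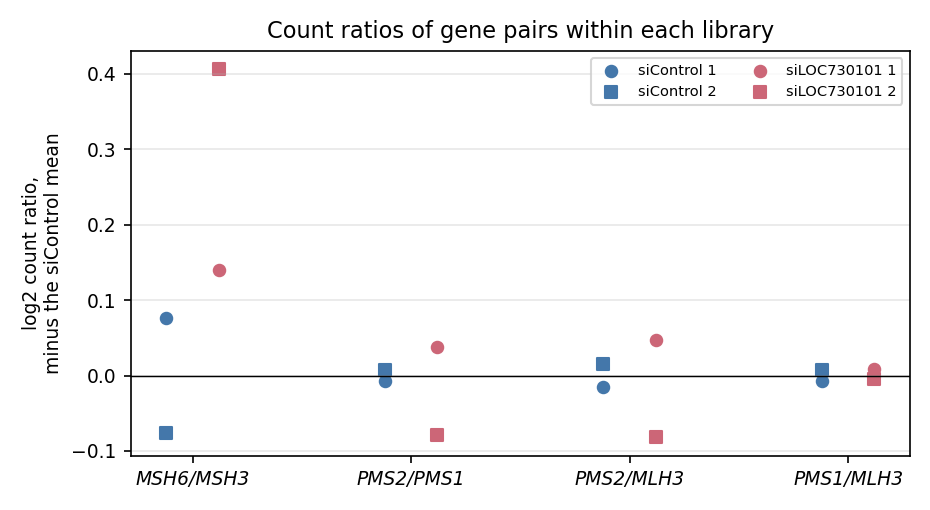
Log2 ratio of the counts of 2 genes within each library, minus the mean of the siControl libraries. The siLOC730101 points lie above both siControl points for MSH6/MSH3, while the 4 libraries overlap for the ratios among PMS2, PMS1 and MLH3.

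MSH5, the remaining MutS member, acts in meiotic recombination rather than in mismatch repair of dividing cells. It lies on chromosome 6, from 31740005 to 31762676 in RefSeq on GRCh38. Reads were few, 29 and 2 in siControl and 16 and 10 in siLOC730101, which gave 0.536, 0.0427, 0.389 and 0.263 CPM. The siControl libraries lay on either side of both siLOC730101 libraries. The log2FC of 0.16 had a standard error of 1.09 and a 95% interval from -2.16 to 2.48 (edgeR adjusted p = 0.983), so a difference was not detectable at this depth. The direction changed without siControl replicate 2, to -0.71, and without siLOC730101 replicate 1, to -0.14, and without siControl replicate 1 the value was 2.85. The readthrough gene MSH5-SAPCD1 shares 2788 exonic nucleotides (44.4%) with MSH5 on the same strand, and featureCounts gives a read that overlaps several genes to none of them unless told otherwise; what part this has in the low count was not tested. MSH5-SAPCD1 had 0 counts in all 4 libraries, which allows up to 3 counts or 0.0554 to 0.079 CPM of reads assigned to it alone. Reads in exons it shares with MSH5 would go to neither gene under that default. The 0 counts therefore set no limit on its RNA. CLIC1, on the opposite strand beyond MSH5 and sharing 35 exonic nucleotides, had 67.0 and 94.7 CPM in siControl and 102.8 and 108.2 in siLOC730101, with a log2FC of 0.38 (edgeR adjusted p = 0.217). MSH4, the meiotic partner of MSH5, was also low, with 30 and 44 counts in siControl and 31 and 39 in siLOC730101.

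PMS2, PMS1 and MLH3 encode MutL subunits. PMS2 carries the nicking activity of the main complex of mitotic cells, MLH3 forms the nuclease known for meiotic crossovers, and the role of PMS1 in human mismatch repair is less clear. The 3 genes had log2FC values between -0.072 and -0.055, each within 1 standard error of 0. PMS2, on the minus strand of chromosome 7 from 5970925 to 6009106 (RefSeq on GRCh38, as for the genes that follow), had 104.9 and 102.4 CPM in siControl and 105.3 and 91.8 in siLOC730101. Its log2FC was -0.072 (SE 0.087, 95% interval -0.26 to 0.11, edgeR adjusted p = 0.841). It was 0.020 without siLOC730101 replicate 2, the lowest of the 4 libraries for this gene, and -0.17 without siLOC730101 replicate 1.

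PMS1, on the plus strand of chromosome 2 from 189784450 to 189877629, had 41.3 and 39.8 CPM in siControl and 40.1 and 37.9 in siLOC730101. Its log2FC was -0.055 (SE 0.10, 95% interval -0.27 to 0.16, edgeR adjusted p = 0.909). MLH3, on the minus strand of chromosome 14 from 75013775 to 75051467, had 67.2 and 64.2 CPM in siControl and 64.6 and 61.6 in siLOC730101. Its log2FC was -0.058 (SE 0.088, 95% interval -0.25 to 0.13, edgeR adjusted p = 0.884). In both genes the groups overlapped. The counts of PMS1 and MLH3 stood in a similar proportion in each library, with 0.614 and 0.621 PMS1 counts for each MLH3 count in siControl and 0.621 and 0.616 in siLOC730101. For PMS2 against MLH3 the ratio was 1.56 and 1.596 in siControl and 1.63 and 1.49 in siLOC730101, and the groups overlapped. ORMDL1, whose start lies 111 nucleotides from that of PMS1 on the opposite strand, had a log2FC of -0.057 (edgeR adjusted p = 0.905), and AIMP2, 166 nucleotides from the start of PMS2, had one of 0.060 (edgeR adjusted p = 0.898).

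The value of PMS2 is uncertain because the genome holds many partial copies of it, from which reads can be misplaced or lost. The table lists 15 of them, PMS2CL and 14 genes named PMS2P, of which 5 had at least 100 counts in each library and 2 had 0 counts throughout. Together their counts came to 75.0% and 68.6% of the PMS2 count in siControl and to 64.9% and 84.1% in siLOC730101. PMS2P1 had 25.5 and 21.5 CPM in siControl and 23.4 and 27.7 in siLOC730101, and PMS2CL had 22.4 and 20.2 in siControl and 19.6 and 23.0 in siLOC730101. In siLOC730101 replicate 2, where PMS2 was lowest, these copies were at their highest. PMS2P4, the copy with the next most reads and named after its values were seen, had 19.1 and 17.2 CPM in siControl and 15.0 and 15.7 in siLOC730101. The copies summed to 78.7 and 70.2 CPM in siControl and 68.3 and 77.2 in siLOC730101, so their sum was highest in siControl replicate 1. When the counts of PMS2 and all copies were added, the log2FC was -0.056 (SE 0.076, edgeR adjusted p = 0.866).

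EXO1 encodes the exonuclease that removes the strand with the error, and its expression is known to follow the cell cycle. It lies on chromosome 1, from 241847986 to 241889939, on the plus strand. EXO1 was counted 861 and 883 times in siControl and 510 and 554 in siLOC730101. Its normalized CPM was 15.9 and 18.9 in siControl and 12.4 and 14.6 in siLOC730101, and the lowest siControl value was above the highest siLOC730101 value. The means were 17.4 ± 2.08 (SD, n = 2) and 13.5 ± 1.54 (SD, n = 2), with a log2FC of -0.37 (SE 0.15, 95% interval -0.69 to -0.040). The unadjusted p was 0.0302 and the adjusted p 0.388 in edgeR, and no alternative gave an adjusted p under 0.212 or above 0.876. The log2FC was -0.24 without siControl replicate 2 and also -0.24 without siLOC730101 replicate 1, and it was -0.49 without siLOC730101 replicate 2. The 6 genes of the replicative helicase, MCM2 to MCM7, had log2FC values from -0.24 to -0.043, with both siLOC730101 libraries below both siControl libraries in all 6, an order found in 20.5% of all genes tested, and none past an adjusted p of 0.05 in edgeR. At an unadjusted p under 0.05, 1 of the 6 was lower, MCM5, against 4.39% of all genes, and DESeq2 called 0 of them.

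**Figure D3:**
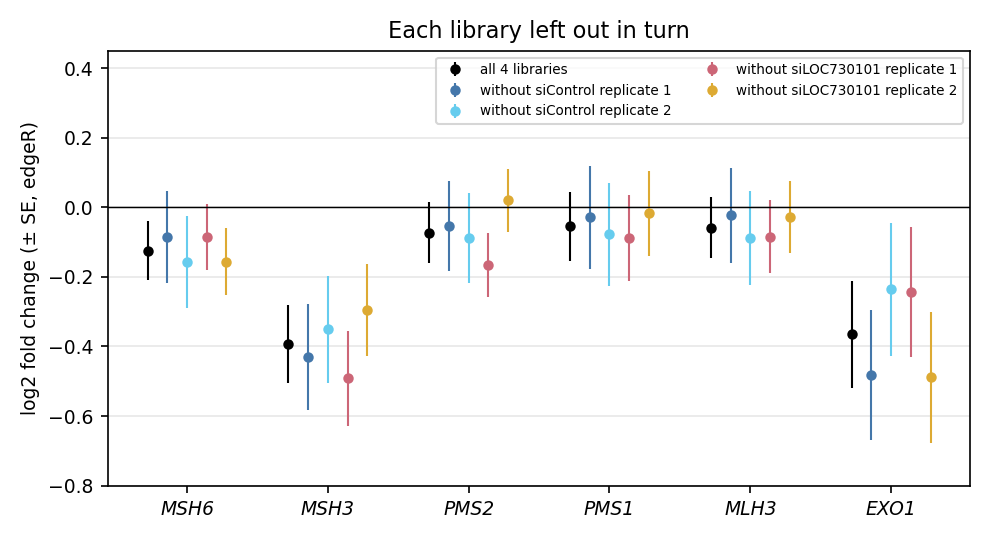
Log2FC of 6 mismatch repair genes with all 4 libraries and with each library left out, with bars of 1 standard error from edgeR. MSH3 lies between -0.49 and -0.30 and EXO1 between -0.49 and -0.24, while PMS2, PMS1 and MLH3 stay between -0.17 and 0.020; MSH5 is left out because of its low counts.

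Levels were compared between genes as the mean normalized CPM per kilobase over the 4 libraries. With the summed exon length of the count table, PMS2 was highest at 8.999 (range 8.17 to 9.37). MLH3 followed at 7.70 (7.36 to 8.04), PMS1 at 7.30 (6.96 to 7.57) and MSH3 at 6.22 (4.99 to 7.25). MSH6 was at 4.45 (4.17 to 4.76), EXO1 at 3.73 (3.00 to 4.56) and MSH5 at 0.049. The ranges of MLH3 and PMS1, of PMS1 and MSH3, and of MSH6 and EXO1 overlapped, and the other neighbours in this order did not. The order depends on the length used. A second scale divided the same counts, from all exons, by the length of the canonical transcript. Reads outside that transcript therefore raise this scale. Per kilobase of the canonical transcript, 4265 nucleotides for MSH6 in place of 17683, MSH6 was at 18.4, next to PMS2 at 19.9 with overlapping ranges, and PMS1 was at 12.6, MLH3 at 8.23, MSH3 at 7.46, EXO1 at 4.48 and MSH5 at 0.113. MSH6 thus moved from the fifth to the second place, EXO1 and MSH5 were lowest with both lengths, and this second scale was added after the data had been seen.

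**Figure D4:**
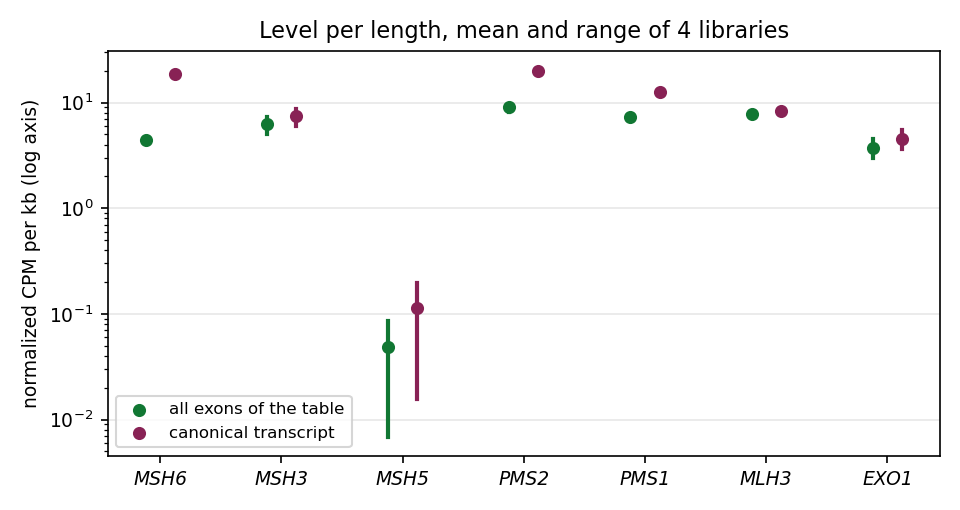
Mean level of each gene per kilobase over the 4 libraries, on a log axis, with a line from the lowest to the highest library. Green uses the length of all exons of the count table and purple that of the canonical transcript, with the same counts. MSH6 moves from 4.45 to 18.4 and MLH3 from 7.70 to 8.23.

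The later steps were described with 14 genes of strand protection, resynthesis and ligation that mismatch repair shares with replication. None passed an adjusted p of 0.05 in edgeR. RPA1, PCNA and, among the helicase genes, MCM5 were singled out after their values were seen. At an unadjusted p under 0.05, 6 were lower and 0 higher, where 4.39% of all genes tested were lower. DESeq2 called 2 of the 13 to which it gave an adjusted p as lower, RPA1 and RFC3. Among all 9525 genes to which it gave one, it called 63 as lower and 234 as higher. The log2FC was below 0 for 12 of the 14, with a median of -0.15, against 50.4% of all genes tested and their median of -0.0021. Both siLOC730101 libraries lay below both siControl libraries in 9, as they did in 20.5% of all genes. RFC3, a subunit of the clamp loader, had the lowest value, with 36.1 and 35.7 CPM in siControl and 27.5 and 26.2 in siLOC730101, a log2FC of -0.42 (SE 0.11, edgeR adjusted p = 0.121). RPA3, of the single-strand binding complex RPA, had the highest, 0.11 (SE 0.10, edgeR adjusted p = 0.765). RPA1, the large RPA subunit, had 200.6 and 200.7 CPM in siControl and 147.5 and 161.9 in siLOC730101. Its log2FC was -0.38 (SE 0.078), and its adjusted p of 0.0594 in edgeR was the smallest of the 14. The paper lists RPA1 among cell cycle genes that were significantly lower in its RNA-seq, and reports a significant RT-qPCR change after siLOC730101. PCNA, the sliding clamp that MSH6, MSH3 and EXO1 are known to bind, had 162.1 and 173.1 CPM in siControl and 140.8 and 160.5 in siLOC730101, with a log2FC of -0.15 (edgeR adjusted p = 0.544).

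Among other partners, MCM9, a helicase of mismatch repair, had 17.4 and 20.5 CPM in siControl and 16.8 and 15.2 in siLOC730101, with a log2FC of -0.24 (SE 0.14, edgeR adjusted p = 0.578). SETD2, whose histone mark is bound by MSH6, had a log2FC of -0.057 (edgeR adjusted p = 0.882). FAN1, a nuclease that binds MutL proteins, had one of -0.059 (edgeR adjusted p = 0.898), and HMGB1, a chromatin protein reported to take part in excision, one of -0.0044 (edgeR adjusted p = 0.995). MSH4 had one of 0.25 with a standard error of 0.60 (edgeR adjusted p = 0.934).

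**Figure D5:**
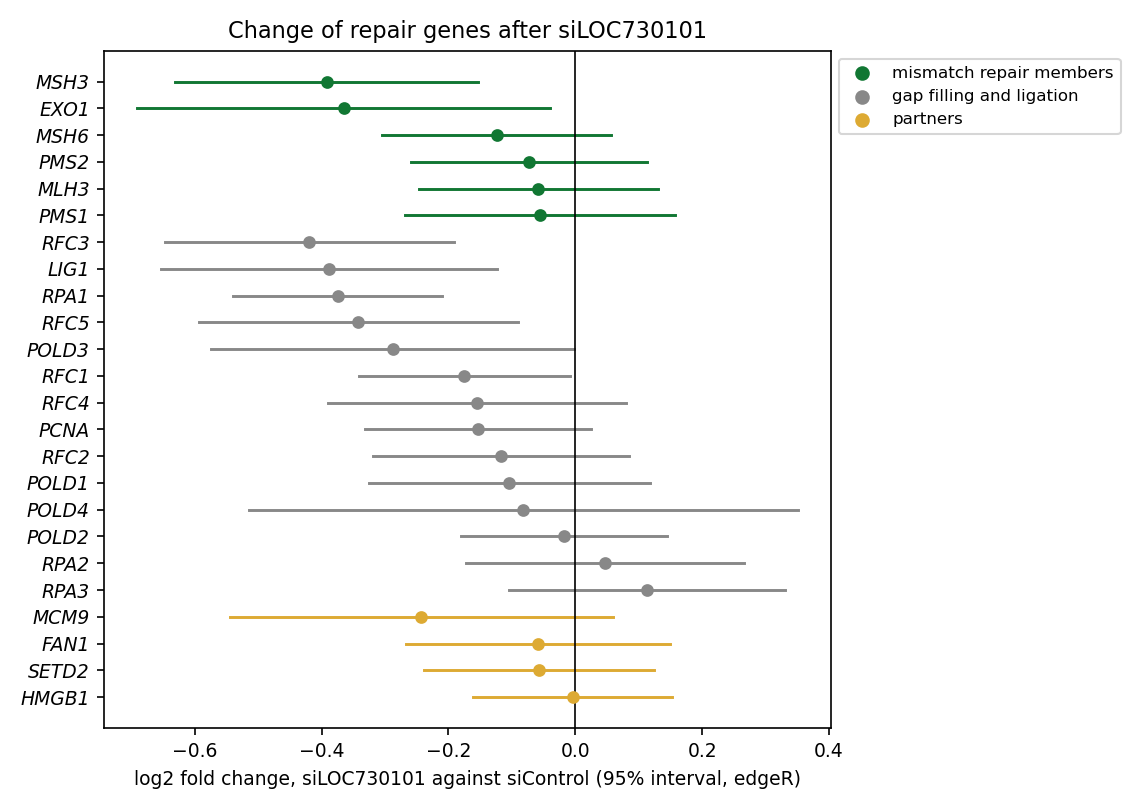
Log2FC of siLOC730101 against siControl with its 95% interval from edgeR, for 6 mismatch repair genes, 14 genes of resynthesis and ligation and 4 partners. MSH3 and EXO1 lie at -0.39 and -0.37 with intervals below 0 before adjustment for the number of genes, and none of the genes drawn passed an adjusted p of 0.05; MSH5 and MSH4 are left out because of their low counts.

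As a description of likeness, the centred log2 CPM of MSH6, MSH3, EXO1, PMS2 and PMS1 over the 4 libraries was compared with that of 14254 genes with a mean count of at least 50. The nearest gene was PCSK6 for MSH6, ENSG00000256417 for MSH3, KCNS3 for EXO1, ZNF708 for PMS2 and CIC for PMS1, with root-mean-square differences from 0.00387 to 0.012. With 4 libraries many genes are close. Within 0.05 of PMS1 there were 1336 genes, and within 0.05 of MSH3 and EXO1 there were 48 and 19.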

How the data were processed

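RNA was measured in 4 libraries, 2 siControl and 2 siLOC730101, grouped by the sample labels, which do not say whether replicates were separate cultures; p-values measure the spread between these libraries, which may be technical. The authors trimmed the reads, aligned them and deposited unnormalized counts from featureCounts 2.0.1. The table's header names hg38 and gencode 41 and neither a strand nor a paired-end option, whereas the published methods name hg19. Of genes with 1 to 20 counts, 66.0% to 70.1% had even counts in a library, so halved counts were an alternative.

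Counts were filtered with filterByExpr, scaled with TMM and tested in R 4.3.3 with edgeR 4.0.16 (glmQLFit and glmQLFTest, package defaults) over 19349 genes, with the Benjamini-Hochberg adjustment. Standard errors came from the coefficient and its F statistic. DESeq2 1.42.0, other scalings and filters, a replicate block and left-out libraries were alternatives. Every member was named, and of the other genes those fixed in lists, all members of the partner list, the extremes of the 14 later genes, overlapping or divergent neighbours and the 2 copies of PMS2 with most reads. Some of the genes that this rule names are not reported here. The members and lists were chosen with earlier results of these data known. Motifs were searched in Python 3.11.15. Log2 CPM used a prior count of 2. No column of another sample was present.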

Additional observations from a re-analysis of the deposited data

How the results depend on the processing

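Over 12 alternatives, 0 of the 7 mismatch repair genes passed an adjusted p of 0.05 except in 2 settings, in each of which MSH3 passed. These were the replicate block, which gave 1 member, 2 later repair genes (RPA1 and RFC3) and 652 genes in all, with an adjusted p of 0.0184 for MSH3 in edgeR, and the fit without siLOC730101 replicate 1. The labels give no pairing beyond the number. The deviations of same-numbered libraries from their group means were uncorrelated (r = -0.000896 across genes). This does not show how the libraries were made, so whether the block belongs in the design is not known. With each library left out in turn, 0 to 1 members, 0 to 3 later repair genes and 137 to 1195 of all genes passed, and the log2 fold change of MSH5 ranged from -0.71 to 2.85 and that of PMS2 from -0.17 to 0.020. Where a group was left with 1 library, that library was assumed to vary like the other group. The 14 later genes gave 0 calls at first, and 1 (RPA1) with upper-quartile factors, library size only, the newer quasi-likelihood method or halved counts, and 2 (RPA1 and RFC3) with DESeq2 or without the expression filter. The 55 genes called in all became 93 with library size only, 437 without the filter, 297 with DESeq2, 111 with the newer quasi-likelihood method and 148 with halved counts; the cause was not tested. The median of the members lay between -0.16 and -0.027, both with 1 library left out. LOC730101 passed in all 12 alternatives, from -1.67 to -1.44. With halved counts, MSH5 did not pass the filter and gave no value. MSH5-SAPCD1 had 0 counts, so adding it to MSH5 could change nothing.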
